A study of Mus musculus with 13 samples.

Results

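The comparison is between ovariectomized mice that carried an estradiol pellet and ate a high-fat diet (the group labelled MIX, 3 mice) and ovariectomized mice that carried the same kind of pellet and ate normal chow (the group labelled E2, 4 mice). Members were taken from the group named in each sample title, which gave 7 of the 13 mice of the series, and all genes on the array were compared. All 13 mice were female C57BL/6 mice whose ovaries were removed on both sides at 6 to 8 weeks of age and which then stayed on their treatment for 12 weeks. The pellet was implanted under the skin and released 17-β estradiol. With the ovaries removed, neither group had ovarian hormones of its own. The other 6 mice had no pellet and ate chow (CON, 3 mice) or the high-fat diet (HD, 3 mice). They are used below as the same diet comparison without estradiol. The endometrium was scraped from the opened uterus with a blunt blade, so each sample can hold luminal, glandular and stromal cells together with vessels, immune cells, blood and neighbouring tissue. In such bulk samples fewer cells of a type and less RNA per cell cannot be told apart. Each mouse gave 1 array of log2 expression values. No label says how the mice were housed or caged, so the p-values measure the spread between these samples.

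Estradiol acts in the uterus through estrogen receptor alpha, the product of Esr1. Without ovarian progesterone it drives the epithelium to proliferate and to secrete proteins such as lactoferrin (Ltf) and lipocalin 2 (Lcn2), and on long exposure it can turn parts of the uterine lining into stratified squamous epithelium. That epithelium is recognised by the transcription factor p63 (Trp63), by basal keratins and by the proteins of desmosomes. A high-fat diet raises circulating fatty acids, insulin and adipose-derived signals, and fatty acids act on nuclear receptors of the PPAR family that control genes of fat oxidation.

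The 7 arrays correlated with each other at 0.968 to 0.989 over 21 pairs. Along the first principal component of all 13 arrays, which held 33.4% of the variance, MIX replicate 3 was farthest out (score 102.5) and E2 replicate 1 came next (46.99). MIX replicate 2 was farthest out on the second component (-72.19, 15.2% of the variance). Animal codes in the titles come in 2 styles, numbered and lettered, with no source saying what they stand for. All 3 MIX mice have lettered codes, whereas 3 of the 4 E2 mice have numbered codes and only E2 replicate 4 has a lettered one. Differences are therefore given both as plain differences of group means and as fitted differences from a limma model with code style as a covariate. The covariate makes the fitted difference lean on E2 replicate 4, and no numbered MIX mouse exists to give a difference within that style. Levels of the hormone readouts did not separate the diets. Ltf was 13.19, 12.57 and 13.26 in MIX and 12.69, 12.64, 12.86 and 12.36 in E2. Without the pellet it was 12.02 to 12.49 in CON and 12.23 to 13.09 in HD. The pellet and no-pellet groups thus overlapped for Ltf, a gene that estradiol is known to induce. Lcn2 lay between 11.59 and 12.13 in MIX and between 11.39 and 11.99 in E2, and Esr1 between 8.19 and 9.35 in MIX and between 8.68 and 9.16 in E2. The progesterone receptor gene Pgr, another estradiol target, was at 8.81 to 10.02 in MIX and 9.43 to 10.62 in E2.

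No feature of 65929 passed an adjusted p under 0.05 between MIX and E2 (limma, Benjamini-Hochberg), which is 0% called, and the smallest adjusted p was 0.196, for Alas2. At an unadjusted p under 0.05, 1832 features (2.78%) were counted, of which 826 (1.25%) were higher in MIX and 1006 (1.53%) lower. That split depended on the scaling: it was 1061 higher and 880 lower after quantile normalization and 1395 higher and 513 lower after each array's median was subtracted. The median fitted difference of all features was -0.02 as deposited and 0.03 after the medians were subtracted. The array medians were 4.57, 4.56 and 4.48 in MIX and 4.54, 4.62, 4.71 and 4.57 in E2. The 3 MIX mice lay above all 4 E2 mice for 988 features (1.5%) and below all of them for 2739 (4.15%). Among the 30142 genes with 1 symbol, the corresponding shares were 2.06% above (622 genes) and 4.41% below (1330 genes), and 47.2% of these genes had a fitted difference above 0 (52.8% below). The plain difference was above 0 for 41.1% and below 0 for 58.9%. Since none passed the test, the genes below are described by their values in each mouse.

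**Figure D1:**
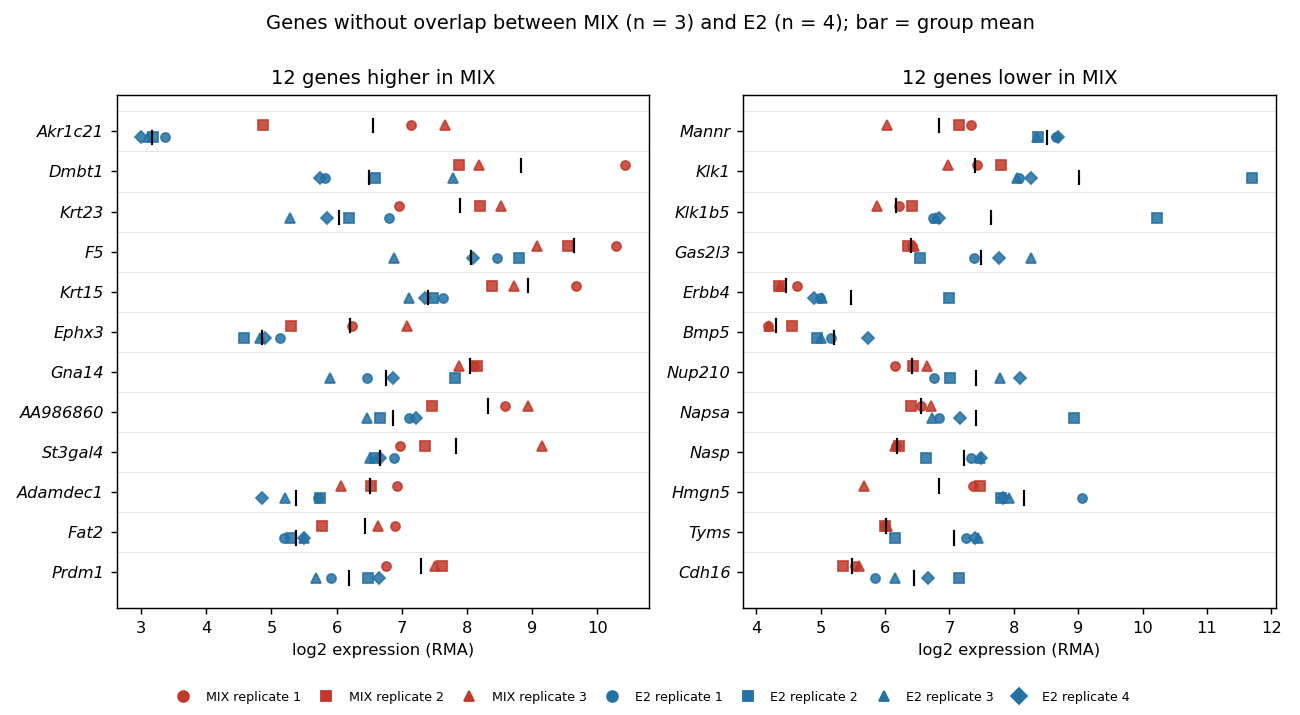
Log2 expression in each MIX mouse (red) and each E2 mouse (blue) for the 12 genes highest and the 12 genes lowest in MIX among genes whose groups did not overlap; black bars are group means and symbols mark replicate numbers. Akr1c21 spans 4.87 to 7.66 in MIX and 3.00 to 3.36 in E2, and in the right panel Klk1, Klk1b5 and Erbb4 have 1 E2 mouse, replicate 2, far to the right of the other 3.

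Genes of basal squamous epithelium had the largest positive median of the 50 lists in MIX. Of the 36 genes on that list 34 were measured, and 32 had a positive fitted difference, with a median of 0.70 against -0.01 over all genes with 1 symbol. None passed the test. At an unadjusted limma p under 0.05, 12 of the 34 (35.3%) were higher in MIX, where 1.67% of all named genes were. Of the 34, 4 (11.8%) lay above all E2 mice, against 2.06% of all genes. These 4 were Trp63, Krt15, Fat2 and Pkp1.

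Trp63, the master transcription factor of stratified epithelia, was at 5.27, 5.18 and 5.38 in MIX and at 4.59, 4.60, 4.51 and 4.62 in E2. Its values differed little within either group, and the gap between the groups was wider than the range within each. The E2 values were close to the median of all values, 4.61, a dim level. The plain difference was 0.70 and the fitted difference 0.69 ± 0.08 (SE; limma, unadjusted p = 6.87e-06, adjusted p = 0.227). Without the code style term Trp63 was the only feature that passed, at a limma adjusted p of 0.0201, and over the alternatives its adjusted p ran up to 1. Krt15, a keratin of basal cells, was at 9.68, 8.39 and 8.73 in MIX and between 7.12 and 7.63 in E2. The lowest MIX mouse was therefore above the highest E2 mouse, and the fitted difference was 1.67 ± 0.30 (SE; limma, adjusted p = 1). Fat2, a giant cadherin of the epidermis, was at 6.89, 5.78 and 6.64 against 5.20, 5.30, 5.49 and 5.49. Pkp1, a desmosomal plaque protein, was at 7.01, 5.92 and 6.93 against 5.92, 5.67, 5.75 and 5.77, so that MIX replicate 2 was barely above the highest E2 mouse.

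Krt5, the type II keratin that pairs with Krt14 in basal cells, showed the pattern of most of the list. It was at 11.64, 10.002 and 12.14 in MIX and at 10.15, 9.01, 8.45 and 9.01 in E2. MIX replicate 2 was below E2 replicate 1, so the groups overlapped in spite of a plain difference of 2.10 (4.3-fold). Krt14 was at 9.06, 7.09 and 10.18 in MIX and at 8.63, 6.75, 6.38 and 6.68 in E2, again with MIX replicate 2 low and E2 replicate 1 high. MIX replicate 2 was below the mean of MIX replicates 1 and 3 for 34 of 34 genes, and E2 replicate 1 was the highest E2 mouse for 24. MIX replicates 1 and 3 lay above all E2 mice for 21 of the 34. These 2 mice were set apart after their values were seen, and the share of all genes above E2 in both was not counted. The other 8 of the 12 were Krt5, Krt14, Krt13, Krt10, Ly6d, Calml3, Dsc3 and Col17a1. They span the layers: Krt5, Krt14 and the hemidesmosome collagen Col17a1 belong to basal cells, Dsc3 is a desmosomal cadherin, Krt13 and Krt10 are keratins of layers above the basal one, and Calml3 is a calmodulin-like protein of differentiating cells. Loricrin (Lor) and filaggrin (Flg), late proteins of the cornified layer, had small differences. Lor was at 5.37 to 5.52 in MIX and 5.29 to 5.54 in E2, and Flg at 6.61 to 6.93 and 6.71 to 7.04. Sprr1a and Sprr2b, small proline-rich genes counted with the uterine estradiol targets, had larger fitted differences, 1.886 ± 0.805 and 2.075 ± 1.035 (SE). Their groups overlapped, and their relatives Sprr1b and Sprr3 on the squamous list are given below. Krt1, the keratin that pairs with Krt10 above the basal layer, was high in a single mouse, MIX replicate 1, at 6.97 where the other 6 were at 4.17 to 4.47. For the list as a whole, the mean log2 value in each mouse was 6.94, 5.91 and 7.04 in MIX and 6.30, 5.80, 5.71 and 5.69 in E2. The median fitted difference of the basal squamous epithelium list was 1.15 without MIX replicate 2 and 0.53 without MIX replicate 3, and 0.82 when the MIX mice were set against E2 replicate 4 alone. Of the 34 genes, 6 had a mean below the median of all values on the arrays, 4.61.

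**Figure D2:**
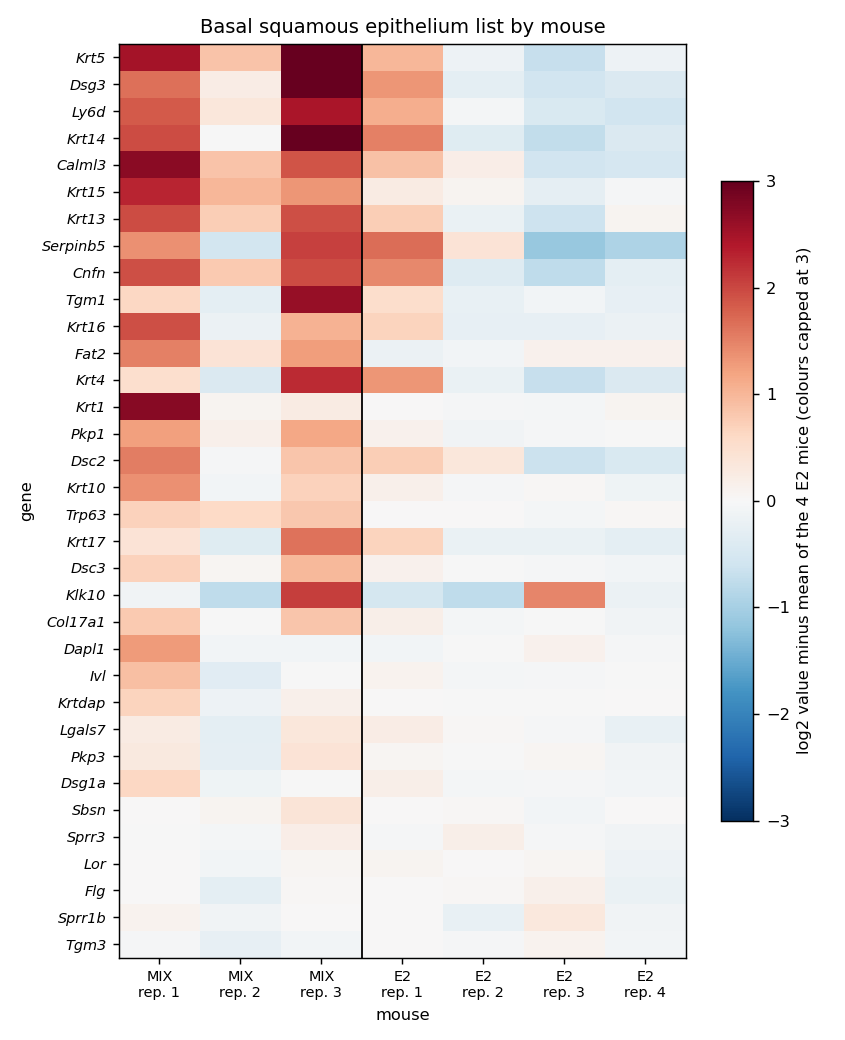
Log2 value of each of the 34 measured squamous genes in each of the 7 mice, as the difference from the mean of the 4 E2 mice (colours capped at 3), sorted by fitted difference. The columns of MIX replicates 1 and 3 are red for most genes down to Col17a1, MIX replicate 2 is pale, and E2 replicate 1 is red for Krt5, Dsg3, Ly6d, Krt14 and Serpinb5.

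Upstream sequence was available from RefSeq (GRCm38.p6) for 20 of these genes as 22 promoters, and the 250 bases before the start site were searched on both strands. The letters TATAAA occurred in 10 of the 22 (45.5%), against 12.4% of all 32851 promoters of that length. They occurred in 0 of the 9 promoters found for the 12 genes highest in MIX. The other motifs searched were rare in them: GCCNNNGGC, bound by AP-2 factors, in 1 of 22 (13.7% of all), AACNGGTT, bound by grainyhead-like factors, in 0 (1.79% of all), and the palindromic estrogen response element, GGTCA and TGACC with any 3 bases between, in 0 (0.0639% of all). These are matches of letters and not shown to be sites. The promoters below are shown because the genes stand for the parts of the list: Krt5 for basal keratins, Fat2 for the genes without overlap, and Krt10 for the genes with TATAAA, which is in capitals.
Krt5 (chr15:101712906-101713155, minus strand): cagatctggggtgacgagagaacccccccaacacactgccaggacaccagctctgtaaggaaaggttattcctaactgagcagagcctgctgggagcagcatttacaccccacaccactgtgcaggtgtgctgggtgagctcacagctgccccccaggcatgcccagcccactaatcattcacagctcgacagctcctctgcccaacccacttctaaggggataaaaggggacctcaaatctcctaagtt
Fat2 (chr11:55312258-55312507, minus strand): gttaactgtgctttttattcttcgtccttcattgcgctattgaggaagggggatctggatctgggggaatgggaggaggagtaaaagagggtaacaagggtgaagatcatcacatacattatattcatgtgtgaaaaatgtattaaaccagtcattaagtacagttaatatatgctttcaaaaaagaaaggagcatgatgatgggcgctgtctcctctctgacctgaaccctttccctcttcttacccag
Krt10 (chr11:99389365-99389614, minus strand): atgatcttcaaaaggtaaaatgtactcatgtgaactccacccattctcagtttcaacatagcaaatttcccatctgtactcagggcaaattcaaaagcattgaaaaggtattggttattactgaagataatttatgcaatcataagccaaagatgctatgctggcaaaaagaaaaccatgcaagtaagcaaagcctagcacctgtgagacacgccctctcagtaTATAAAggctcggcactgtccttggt
Among the genes with TATAAA, Krt10 had a fitted difference of 0.71, Col17a1 of 0.58, Dapl1 of 0.43, Ivl of 0.24 and Krtdap of 0.22, whereas Lor, Flg, Sprr1b and Sprr3 lay between -0.01 and 0.06 and Tgm3 was at -0.11.

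Akr1c21, an aldo-keto reductase that converts ketosteroids, headed the 12 genes highest in MIX. It was at 7.14, 4.87 and 7.66 in MIX and at 3.36, 3.18, 3.10 and 3.00 in E2. In the mice without a pellet it lay between 3.02 and 3.25, so the 3 MIX mice were above every other mouse of the 13. The 10 mice outside MIX were all below the median of all values, 4.61, so the level that the MIX mice are compared with is dim and the size of the difference is not firm. The plain difference was 3.40 and the fitted difference 3.50 ± 0.61 (SE; limma, unadjusted p = 1.79e-04, adjusted p = 1). It ran from 2.95 without MIX replicate 3 to 4.34 without MIX replicate 2, and in the latter case the limma adjusted p was 2.0e-05. Akr1c21 has close relatives in the Akr1c family, and whether their transcripts reach its probes was not tested. Of the 28 measured steroid-converting enzymes, Akr1c21 included, 15 were fitted higher, and 1, Akr1c21, lay above all E2 mice (3.57%, against 2.06% of all genes).

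The remaining genes at the top of the higher side were secreted, epithelial or regulatory. Dmbt1, a secreted scavenger protein of mucosal surfaces, was at 10.42, 7.88 and 8.18 in MIX and at 5.83, 6.59, 7.79 and 5.75 in E2, a plain difference of 2.34. The gap between the lowest MIX mouse and the highest E2 mouse was small, and Dmbt1 was also higher on the high-fat diet without the pellet, by 1.94. Krt23, a type I keratin, was at 6.96, 8.20 and 8.52 against 6.80, 6.19, 5.29 and 5.85. Coagulation factor V (F5) was at 10.28, 9.55 and 9.07 against 8.46, 8.80, 6.88 and 8.10. The fitted differences were 1.97 ± 0.47 and 1.65 ± 0.68 (SE). The groups did not overlap for either, but MIX replicate 1 was close to E2 replicate 1 for Krt23 and MIX replicate 3 close to E2 replicate 2 for F5. The others of the 12 were Ephx3, an epoxide hydrolase, Gna14, a G protein alpha subunit, the sialyltransferase gene St3gal4, the metalloprotease-like Adamdec1, the transcriptional repressor gene Prdm1 (Blimp-1) and AA986860. Their plain differences lay between 1.11 and 1.46, and unadjusted limma p over the 12 genes ran from 1.79e-04 to 0.0475. MIX replicate 2 was the MIX mouse nearest to E2 for 6 of the 12.

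Vdr and Tle4 stood out by the tightness of their groups rather than by size. Vdr, the vitamin D receptor gene, was at 6.40, 6.49 and 6.66 in MIX and at 5.78, 5.88, 5.83 and 5.74 in E2. Its fitted difference was 0.75 ± 0.13 (SE; limma, unadjusted p = 1.17e-04, adjusted p = 1). Of the 16 measured genes of vitamin D and calcium handling, Vdr included, 6 were fitted higher. Vdr alone lay above all E2 mice (6.25%, against 2.06% of all genes). The calcium channel gene Trpv6 ranged from 9.14 to 10.61 in MIX and from 8.44 to 11.18 in E2. Tle4, a corepressor of Wnt target genes, was at 7.02, 7.20 and 7.32 against 6.34, 6.30, 6.21 and 6.54. The Wnt receptor gene Fzd4 was at 7.44, 7.15 and 6.98 against 6.60, 6.15, 5.95 and 6.13, also without overlap. Of 47 measured Wnt pathway genes, 22 were fitted higher and 25 lower, and 3 (6.38%) lay above all E2 mice, against 2.06% of all genes. After each array's median was subtracted, 29 of the Wnt pathway genes were higher.

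Bmp5, a ligand of the BMP pathway, had the smallest p of the genes named on the lower side. It was at 4.17, 4.55 and 4.20 in MIX and at 5.17, 4.94, 5.01 and 5.74 in E2, with a fitted difference of -1.20 ± 0.18 (SE; limma, unadjusted p = 4.14e-05, adjusted p = 0.910). The 3 MIX mice were also the lowest of all 13, since the mice without a pellet lay between 5.62 and 6.35. All 3 MIX values were below the median of all values, 4.61, so the size of the difference is not firm. Another ligand, Bmp6, went the other way, at 7.69, 7.50 and 7.45 against 7.37, 7.14, 6.995 and 7.21. The receptor gene Acvrl1 was at 7.19 to 7.37 in MIX and 6.80 to 6.90 in E2. Over the 46 measured genes of the BMP and TGF-beta pathway, 23 were fitted higher and 23 lower, with a median of 0.00. Hmga2, a chromatin protein of growing tissues, was at 6.69, 6.91 and 6.35 in MIX and at 7.19 to 7.61 in E2.

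Of the 12 genes lowest in MIX, Mannr had the largest plain difference, -1.69, at 7.33, 7.16 and 6.03 in MIX and 8.66, 8.38, 8.37 and 8.68 in E2. The kallikrein genes Klk1 and Klk1b5, which encode secreted serine proteases, came next, but their size rested on 1 mouse. Klk1 was at 7.42, 7.80 and 6.98 in MIX and at 8.08, 11.69, 8.04 and 8.26 in E2. Klk1b5 was at 6.21, 6.42 and 5.88 against 6.74, 10.23, 6.79 and 6.84. E2 replicate 2 was far above the other 3 E2 mice for both, and without it the fitted difference of Klk1 was -1.46 in place of -2.09; without E2 replicate 4 it was -3.42. The kallikreins of this family are near-identical in sequence, and their probes cannot be taken as separate measurements. Erbb4, the receptor for neuregulins, was high in that same mouse, at 6.99 where the other E2 mice were at 4.90 to 5.03 and the MIX mice at 4.35 to 4.64. Of the 21 measured EGF family and receptor genes, 2 (9.52%) lay below all E2 mice, against 4.41% of all genes.

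Genes of DNA replication and mitosis were on average lower in the MIX mice than in 3 of the 4 E2 mice, and lower still in E2 replicate 2. All 43 measured genes had a negative plain difference, with a median of -0.85, and 42 had a negative fitted difference, with a median of -0.47. None passed the test, none had an unadjusted p under 0.05 in limma, and 1 (2.33%), thymidylate synthase (Tyms), lay below all E2 mice, where 4.41% of all genes did. Tyms was at 6.00, 6.00 and 6.02 in MIX and at 7.26, 6.16, 7.45 and 7.40 in E2. The replication helicase subunit gene Mcm2 was at 7.71, 7.14 and 7.80 in MIX and at 8.25, 7.58, 9.11 and 9.28 in E2. E2 replicate 2 thus lay among the MIX mice for Mcm2, and it was the lowest E2 mouse for 43 of 43 genes and below all MIX mice for 29. The MIX mice were below E2 replicates 1, 3 and 4 for 42. E2 replicate 2 was set aside there after its values were seen, and the share of all genes below the other 3 was not counted. The list mean was 6.66, 6.37 and 6.97 in MIX and 7.91, 6.14, 7.98 and 7.96 in E2. Without E2 replicate 2 the median fitted difference of the replication and mitosis list was -0.83, and without E2 replicate 4, the lettered E2 mouse, it was 0.27, the opposite sign. On the same genes the high-fat diet without the pellet had a median plain difference of -0.48. Among the 12 genes lowest in MIX, which were chosen for that, Gas2l3, a cytoskeletal linker of dividing cells, was at 6.36 to 6.45 in MIX and 6.54 to 8.27 in E2. Nasp, a histone chaperone and another of the 12, was at 6.15 to 6.22 in MIX and 6.64 to 7.49 in E2.

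Interferon-stimulated genes had the most negative fitted median of the 50 lists, and 1 chow mouse stood apart on them. Of 37 measured genes, 32 were fitted lower in MIX with a median of -0.81. At an unadjusted limma p under 0.05, 12 (32.4%) were lower, where 1.46% of all genes were. None lay below all E2 mice, where 4.41% of all genes did. Mx1, an antiviral GTPase, was at 6.59, 5.54 and 6.03 in MIX and at 6.61, 5.61, 6.19 and 8.73 in E2. The GTPase gene Mx2 was at 5.61 to 6.09 in MIX, 5.80 to 6.04 in 3 E2 mice and 8.47 in E2 replicate 4. E2 replicate 4 was the highest of the 7 mice for 32 of the 37 genes. Without that mouse, the median fitted difference of the interferon-stimulated genes was -0.05, with 16 genes higher and 21 lower, and with a replicate block it was 0.10. The plain median over all 7 mice was -0.30.

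**Figure D3:**
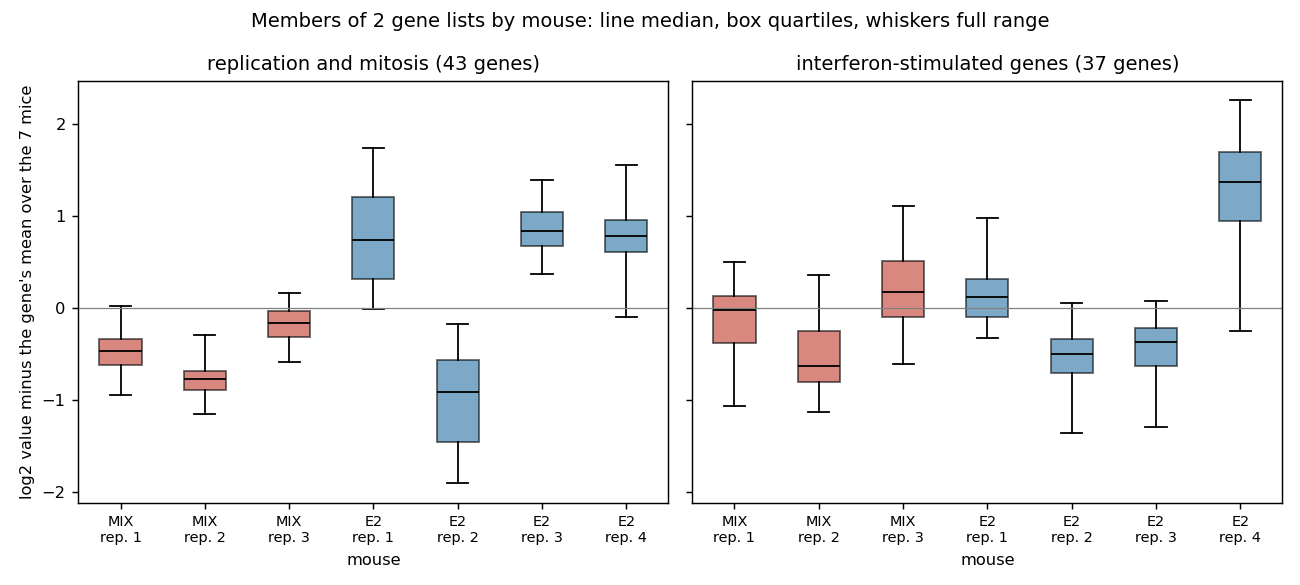
Log2 values of the 43 replication and mitosis genes (left) and the 37 interferon-stimulated genes (right) in each mouse, each gene relative to its mean over the 7 mice; lines are medians, boxes quartiles and whiskers the full range. E2 replicate 2 sits below the other 3 E2 mice on the left, and E2 replicate 4 sits above every other mouse on the right.

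Lists of fat metabolism genes had small median differences, while some single members differed more. Of 32 measured genes of fatty acid oxidation and PPAR targets, 25 were fitted higher in MIX, with a median of 0.14, and 5 (15.6%) lay above all E2 mice, against 2.06% of all genes. These 5 were Slc25a20, which carries acylcarnitines into mitochondria, Cpt2, Ech1, Acaa1a and Acaa1b, all enzymes of the oxidation pathway. Slc25a20 was at 8.25, 8.28 and 8.68 in MIX and at 8.13, 7.87, 7.75 and 7.98 in E2, a fitted difference of 0.40 ± 0.15 (SE; limma, unadjusted p = 0.0230, adjusted p = 1). Cpt2 was at 8.07, 8.13 and 8.23 against 7.99, 7.99, 7.76 and 7.80. These gaps are narrow, and the 5 genes are named because their groups did not overlap. Whether Acaa1a and Acaa1b are separate measurements was not tested. Pdk4 and Angptl4, known targets of PPAR receptors, were high in only 2 of the MIX mice. Pdk4, the kinase that turns off pyruvate oxidation, was at 5.28, 6.31 and 7.08 in MIX and 5.02 to 5.49 in E2. Angptl4, an inhibitor of lipoprotein lipase, was at 6.18, 7.47 and 7.66 in MIX and 6.09 to 6.86 in E2. Cpt1a, the rate-limiting step of fatty acid entry, was at 10.01, 9.68 and 9.84 against 9.20, 9.79, 8.98 and 8.97, so that 1 E2 mouse overlapped. Without the pellet the median difference of the list was -0.00.

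Fatty acid synthesis had no majority that held both ways: 9 of 22 genes were higher by the fitted difference, with a median of -0.04, and 14 by the plain difference, with a median of 0.11. Scd1, the stearoyl-CoA desaturase, was at 7.10, 8.03 and 7.31 in MIX and at 8.11, 7.69, 8.52 and 8.71 in E2. The elongase Elovl6 was at 6.93, 7.48 and 6.41 in MIX and at 8.17, 7.16, 7.44 and 8.08 in E2. Both were lower in MIX on average, and both overlapped, with fitted differences of -0.98 ± 0.38 and -0.84 ± 0.38 (SE). Scd1 was lower by a similar amount on the high-fat diet without the pellet, at -0.92. Cholesterol synthesis and uptake genes had a fitted median of 0.15 over 19 genes and a plain median of 0.02. The fitted median was -0.00 without MIX replicate 3 and 0.41 without MIX replicate 2. Of its genes 1 (5.26%, against 2.06% of all genes), Insig2, a brake on sterol synthesis, lay above all E2 mice at 7.01, 7.05 and 7.08 against 6.45 to 6.82. Genes of cholesterol efflux and lysosomal lipid handling were fitted higher in 17 of 21 cases. None lay above all E2 mice (2.06% of all genes did) and none below all of them (4.41% of all genes did). The fitted median of the cholesterol efflux and lysosomal lipid list was 0.15, and it ran from 0.06 without MIX replicate 3 to 0.37 without MIX replicate 1. Of 31 measured genes of lipid uptake and droplets, 21 were fitted higher and 10 lower, with a median of 0.085. Without E2 replicate 4 that median was 0.001. Of the 31, 1 (3.23%) lay above all E2 mice, against 2.06% of all genes. Fabp5 and Slc27a4 were fitted higher, by 1.022 ± 0.417 and 0.616 ± 0.258 (SE), with overlap between the groups. The fatty acid transporter genes Slc27a1 and Slc27a3 went opposite ways. Slc27a1 was at 7.07 to 7.31 in MIX and 6.79 to 6.97 in E2, while Slc27a3 was at 6.47 to 6.55 in MIX and 6.49 to 7.97 in E2. Insulin and IGF1 signalling genes had a median of 0.06 over 26 genes, from 0.01 without MIX replicate 2 to 0.14 without MIX replicate 3 on the insulin and IGF1 signalling list. The insulin receptor substrate gene Irs1 ranged from 6.33 to 7.62 in MIX and from 6.51 to 8.59 in E2. Among adipocyte markers, adiponectin (Adipoq) was at 3.07 to 3.25 in MIX and 3.18 to 3.52 in E2, below the median of all values, and 10 of 20 genes of that list were fitted higher.

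Glycolysis and hypoxia genes were fitted higher in 29 of 31 cases, with a median of 0.30. None of the 31 lay above all E2 mice, where 2.06% of all genes did. Car9, a carbonic anhydrase induced by low oxygen, was at 7.03, 6.06 and 7.64 in MIX and at 6.44, 5.77, 6.03 and 5.95 in E2. MIX replicate 2 was again the low MIX mouse. The median of the glycolysis and hypoxia response list was 0.15 when E2 replicate 4 was left out and 0.20 when MIX replicate 3 was, and it was 0.46 in the absence of MIX replicate 2. On the same list the high-fat diet without the pellet gave a plain median of 0.18.

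Chaperones of the heat shock family were split. Of 25 measured genes 16 were fitted lower, and 5 (20.0%) lay below all E2 mice, against 4.41% of all genes. Hsp90aa1, a chaperone that holds steroid receptors ready to bind hormone, was at 9.78, 9.79 and 9.95 in MIX and at 10.81, 10.43, 10.63 and 10.42 in E2. The mitochondrial chaperones Hspd1 and Hspa9 were at 8.86 to 9.06 and 8.90 to 9.09 in MIX and at 9.46 to 9.92 and 9.35 to 9.62 in E2. All 3 MIX mice were below all 4 E2 mice for each, and the fitted differences were -0.50 ± 0.20, -0.51 ± 0.20 and -0.39 ± 0.14 (SE). Fkbp4, an immunophilin cochaperone of steroid receptors, was at 9.34, 9.38 and 9.11 in MIX and at 9.67, 9.64 and 9.95 in E2 replicates 1, 2 and 4, with E2 replicate 3 higher still, a fitted difference of -0.54 ± 0.13 (SE; limma, unadjusted p = 0.00246, adjusted p = 1). Of the 25 heat shock genes, which do not include Fkbp4, 9 were fitted higher. At an unadjusted limma p under 0.05, 2 (8.0%) were higher, Dnaja4 and Hspa2, where 1.67% of all genes were. At the same p, 3 (12.0%) were lower, where 1.46% of all genes were. Hspa2, a family member best known from germ cells, was the single one above all E2 mice (4.0%, against 2.06% of all genes), at 5.99 to 6.05 in MIX and 5.44 to 5.64 in E2. The majority of heat shock proteins turned to 13 of 25 higher after each array's median was subtracted and also without E2 replicate 4.

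Uterine estradiol targets were fitted higher in MIX for 28 of 41 genes, with a median of 0.24, and 0 lay above all E2 mice, where 2.06% of all genes did. The median of the uterine estradiol targets was 0.09 without E2 replicate 4 and 0.41 without MIX replicate 2. The goblet-type secretory gene Agr2 was at 10.63, 9.56 and 7.10 in MIX and at 8.14, 6.97, 5.52 and 5.76 in E2. Olfm4, a secreted protein of mucosal crypts, was at 9.80, 9.17 and 10.38 against 9.04, 9.38, 7.89 and 6.89. Both were high in most MIX mice, but E2 replicate 1 reached into the MIX range for Agr2 and E2 replicate 2 for Olfm4. In the mice without a pellet Olfm4 was at 4.79 to 5.20, below every pellet mouse, unlike Ltf. Of 32 measured genes of water and ion channels, 2 (6.25%) lay above all E2 mice, against 2.06% of all genes. The sodium channel subunit gene Scnn1a was at 7.49, 7.12 and 7.79 in MIX and at 6.76, 6.99, 6.66 and 6.91 in E2. Clca2, a regulator of chloride currents found in stratified epithelia, was at 3.90, 4.12 and 4.35 in MIX and 3.53 to 3.63 in E2, all below the median of all values.

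Alas2, which starts heme synthesis in the red cell lineage, had the smallest p of all features. It was at 8.65, 8.27 and 8.66 in MIX and at 8.19, 8.08, 7.95 and 7.10 in E2. The plain difference was 0.70 and the fitted difference 1.62 ± 0.18 (SE; limma, unadjusted p = 2.98e-06, adjusted p = 0.196). The fitted difference was the larger, and E2 replicate 4 had the lowest value of the 7 mice. The lettered mice without a pellet were low as well, at 6.43 in CON and 6.35 in HD. Their numbered counterparts were at 7.45 and 7.61 in CON and at 7.95 and 8.085 in HD. The code style term is estimated from these mice too, so the fitted difference carries that shift. With all features in the limma model the adjusted p of Alas2 ran from 0.0295 to 1 over the alternatives. Fech, the last enzyme of heme synthesis, was at 7.83 to 7.93 in MIX and 7.36 to 7.59 in E2. Of 18 measured red blood cell genes 11 were fitted higher, with a median of 0.02. By the plain difference 8 were higher and 10 lower, with a median of -0.02. Of the 18, 2 (11.1%) lay above all E2 mice, against 2.06% of all genes. At an unadjusted p under 0.05 in limma, 5 of the 18 (27.8%) were higher, where 1.67% of all genes were: Alas2, Fech, Hba-ps4, Bpgm and the anion exchanger gene Slc4a1. Hba-ps4, an alpha-globin pseudogene, was at 7.77, 7.74 and 7.96 in MIX and at 7.57, 7.75, 7.52 and 6.91 in E2, with a plain difference of 0.39 and a fitted difference of 1.17. Its groups overlapped, and E2 replicate 4 was again the lowest. The lettered mice without a pellet were at 6.285 in CON and 5.95 in HD for this pseudogene, below the numbered ones at 7.12 to 7.62. Bpgm, which makes the oxygen-release regulator of red cells, was at 6.79, 6.50 and 6.96 in MIX and 6.29 to 6.72 in E2. The list mean was 6.05 to 6.21 in MIX and 5.95 to 6.14 in E2. The part of blood in the samples in the difference of Alas2 was not tested.

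**Figure D4:**
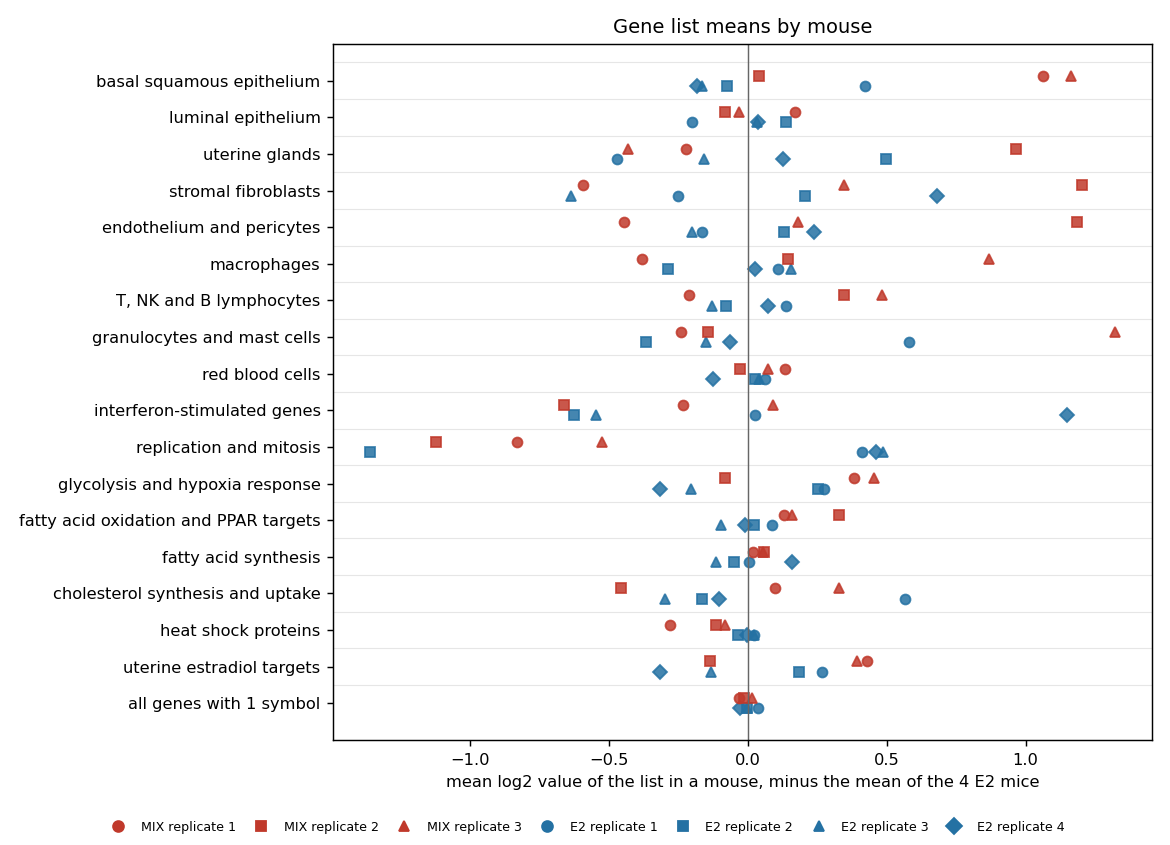
Mean log2 value of each gene list in each mouse, relative to the mean of the 4 E2 mice; MIX mice are red, E2 mice blue, and symbols mark replicate numbers. MIX replicate 2 is far right for stromal, endothelial and glandular lists, MIX replicate 3 for granulocytes and macrophages, and E2 replicate 4 for interferon-stimulated genes.

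Markers of the cell types in the scrape varied between mice of the same group as much as between groups. The luminal epithelium list had a mean of 9.30, 9.05 and 9.10 in MIX and of 8.93, 9.27, 9.16 and 9.17 in E2, and Epcam was at 9.96 to 10.90 and 10.34 to 10.75, far above the median of all values in every sample. The stromal fibroblast list was at 7.45, 9.25 and 8.39 in MIX and at 7.79, 8.25, 7.41 and 8.72 in E2. The endothelium and pericytes list was at 5.43, 7.06 and 6.06 in MIX and at 5.71, 6.01, 5.68 and 6.12 in E2. MIX replicate 2 was the highest of the 7 mice on both, and it was also the mouse with the lowest squamous list mean in MIX. Without it the fitted medians were -0.32 for stromal fibroblasts and -0.19 for endothelium and pericytes, in place of 0.20 and 0.23, and with array weights they were -0.24 and -0.11. The uterine glands list followed the same mouse, at 6.42, 7.61 and 6.22 in MIX and 6.18 to 7.15 in E2. Neutrophil genes followed MIX replicate 3 and E2 replicate 1: S100a8 was at 8.10, 5.82 and 11.37 in MIX and at 9.91, 6.13, 6.74 and 7.58 in E2. The granulocyte and mast cell list was at 5.38, 5.48 and 6.95 in MIX and at 6.21, 5.26, 5.47 and 5.56 in E2. None of the T, NK and B lymphocyte genes lay above all E2 mice, where 2.06% of all genes did. That list had 31 of 35 genes fitted higher, with a median of 0.19. Without MIX replicate 3 it was 20 of 35 with a median of 0.05, and with array weights 22 of 35 with a median of 0.07, while without MIX replicate 1 the median was 0.38. The part of these differences in cell content in the squamous, replication and other differences was not tested.

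**Figure D5:**
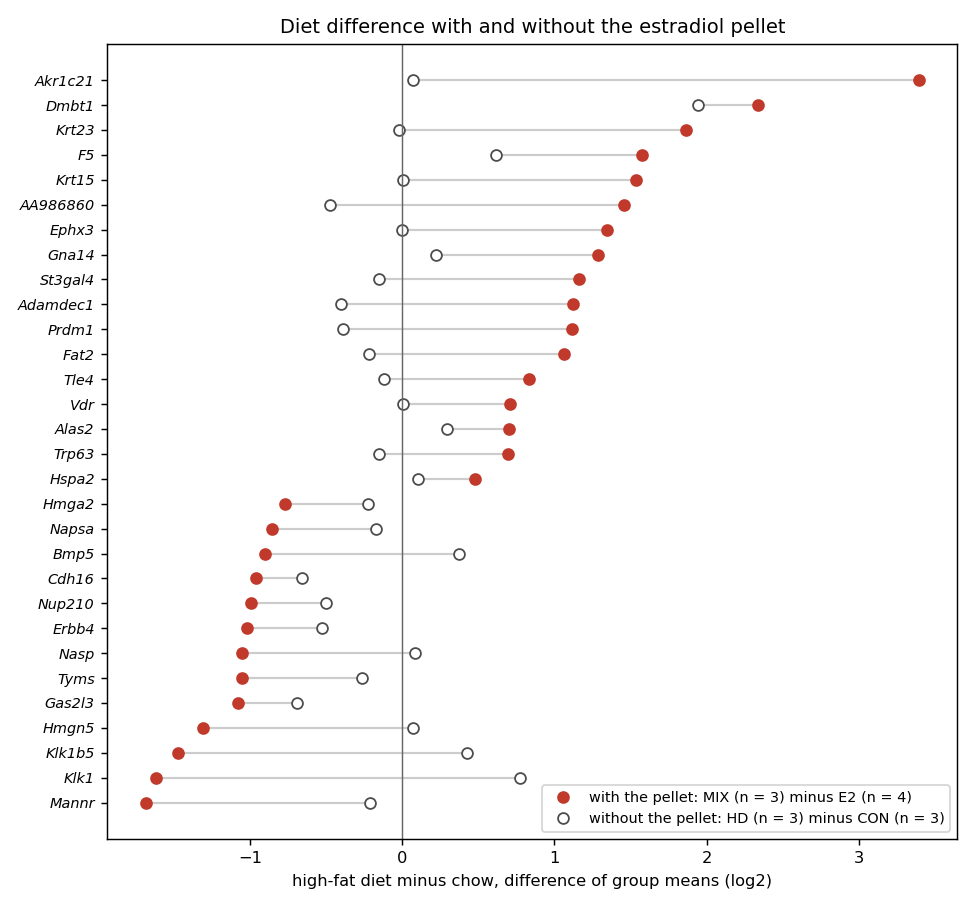
Difference between high-fat diet and chow in group means (log2) for the leading genes and the 10 with the smallest p, with the pellet (red, MIX minus E2) and without it (open, HD minus CON). Akr1c21, Krt23, Krt15 and Ephx3 lie near 0 without the pellet, while Dmbt1 is at 1.94 without it and 2.34 with it.

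The same diet comparison could be made without estradiol, in mice that share no group with the one above. For the 12 leading genes on the higher side the median plain difference was 1.40 with the pellet and -0.01 without it, and on the lower side it was -1.06 and -0.19. The genes were picked on the pellet contrast, so the smaller values without it are given as a description. Tested over all features, the difference between the diet effects with and without the pellet passed for 0 features after adjustment (0% called, limma). A further count at an unadjusted p under 0.05 gave 1382 features (2.1%). For Trp63 the interaction was 0.84 (limma, unadjusted p = 1.53e-05), for Bmp5 -1.57 and for Akr1c21 3.43, none of which passed after adjustment. Krt15 was at 6.36 to 6.68 in all 6 mice without a pellet, below every pellet mouse, and did not differ by diet there, with a plain difference of 0.00. The squamous list as a whole had a median plain difference of 0.01 without the pellet. Across genes, the plain differences with and without the pellet had a Pearson r of 0.045, a description over genes, which are not independent replicates.

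Because MIX replicate 2 stood apart on the cell type lists, the comparison without it is given in full. In that limma fit, 24 of 65929 features passed at an adjusted p under 0.05, all higher in MIX. Of these, 17 had a symbol other than a Gm number, and 3 (Trp63, Pkp1 and Fat2) were among the 34 measured genes of the squamous list. They were chosen after their values were seen. The choice itself favours genes that are high in MIX replicates 1 and 3 and low in the E2 mice. MIX replicate 2 lay above all E2 mice for 5 of the 17. The same E2 values entered the choice, so this count is not a separate check. The share of all genes with that mouse above all E2 mice was not counted. Duox2, an oxidase that makes hydrogen peroxide at mucosal surfaces, was at 8.14, 5.68 and 8.45 in MIX and at 6.03, 5.16, 5.16 and 4.92 in E2. Its maturation factor Duoxa1 was at 6.63, 5.47 and 6.67 against 5.76, 5.47, 5.47 and 5.46. For both, MIX replicate 2 was within the E2 range. Grhl3, a transcription factor of the epidermal barrier, was at 8.44, 6.43 and 8.76 against 6.96, 6.44, 6.28 and 6.09. Tfap2a, which encodes an AP-2 factor of epidermis, was at 5.29, 4.49 and 5.25 against 4.55, 4.51, 4.35 and 4.44. The water and glycerol channel Aqp3, the epithelial lipase Liph and Trim29, a protein of basal cells, were also among the 17, with MIX replicate 2 within the E2 range for each. Without MIX replicate 3, 2 features passed instead, Pip, which encodes a secreted protein of exocrine glands, and A330093E20Rik. Pip was at 4.75, 4.43 and 3.36 in MIX and 2.76 to 3.10 in E2.

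MicroRNA features were mostly dim: 338 of 600 had a mean below the median of all values, and 7 (1.17%) lay above and 28 (4.67%) below all E2 mice, close to the shares of all features. The array was prepared from total RNA and does not tell a hairpin from its mature forms. The 3 with the smallest p are shown by their mature RefSeq sequences (GRCm38.p6), with the seed, bases 2 to 8, in capitals; no seed was shared between them.
mmu-miR-484 (chr16:14159630-14159651, plus strand): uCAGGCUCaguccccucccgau
mmu-miR-7228-5p (chr5:134572076-134572094, plus strand): uGGCGACCugaacagaugu
mmu-miR-7228-3p (chr5:134572098-134572114, plus strand): aGUGUUCGgucuccagu
mmu-miR-301a-5p (chr11:87113017-87113038, plus strand): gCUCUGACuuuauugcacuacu
mmu-miR-301a-3p (chr11:87113054-87113076, plus strand): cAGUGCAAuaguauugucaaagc
The Mir484 feature was at 3.45, 3.49 and 3.67 in MIX and at 3.18, 3.27, 3.33 and 3.24 in E2, without overlap but below the median of all values. Mir7228 was at 5.23 to 5.36 in MIX and 5.28 to 5.58 in E2, and Mir301 at 3.60 to 4.49 and 4.12 to 4.83. Of the 24 measured long noncoding RNAs on the list, 17 were fitted lower, where 52.8% of all genes were, and 2 (8.33%) lay below all E2 mice, against 4.41% of all genes. After each array's median was subtracted, 12 of the long noncoding RNAs were lower and 12 higher. One of them was the small nucleolar RNA host gene Snhg9, at 6.32 to 6.61 in MIX and 6.64 to 6.77 in E2.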

How the data were processed

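Endometrial RNA of 13 mice was hybridised to 1 array each, from 250 ng of total RNA (per the labels' protocols). Values were deposited on a log2 scale; the authors obtained them with RMA, as the submitters' processing notes state. This method adjusts background, brings the probe values of the arrays to one distribution and merges probes into features. It compresses small differences of dim features. The medians of the deposited arrays still ran from 4.48 in MIX replicate 3 to 4.71 in E2 replicate 3. No source used here gives the RMA version, the array library or any filters. Of 65929 features, 30604 carried 1 gene symbol, 2146 several and 33179 were unnamed here; each symbol was represented by its feature with the highest mean. Arrays give no read depth, so the number of mice limits the precision.

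The test was limma 3.58.1 (lmFit, then eBayes; R 4.3.3), with all 13 mice in 1 fit with 4 group coefficients and code style (7 numbered, 6 lettered mice) as a covariate. It had 8 residual degrees of freedom, and the prior added 2.23. The fit was tested on simulated data. The threshold was a two-sided Benjamini-Hochberg adjusted p under 0.05. Code style itself passed for 0 features, with 3516 at an unadjusted p under 0.05. Gene lists (50) were described by counts and medians without a test, with 1424 of 1607 memberships matched. The genes named were the 12 highest and 12 lowest in MIX without overlap between the groups and with the higher mean above the median of all values, ranked by the smaller of plain and fitted difference, then the 10 with the smallest p, 4 hormone readouts, the 4 members with the smallest p of each of 23 lists, and 3 microRNAs. Predicted, receptor-segment and pseudogene symbols were left out. Further list members and the genes called without 1 mouse were added after their values were seen. The comparison, the members and the lists were chosen with earlier results of these data known. Alternatives were fits without code style or with MIX and E2 mice alone, an intensity trend, bright features alone, quantile normalization, subtracted medians, array weights, a replicate block, and each mouse left out.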

Additional observations from a re-analysis of the deposited data

Results flagged for a closer look

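Among 34 leading or check genes and 50 list means, 6 had an E2 mouse that stood apart from the other 3 by Dixon's criterion, which chance meets in about 1 of 20 groups. E2 replicate 2 was far above the other E2 mice for Klk1 (11.69), Klk1b5 (10.23) and Erbb4 (6.99). The same mouse was far below them for Tyms (6.16) and for the mean of the replication and mitosis list (6.14). E2 replicate 1 was far above them for Hmgn5 (9.05), which binds nucleosomes. The groups of 3 mice were not examined in this way.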

How the results depend on the processing

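The count of features that passed between MIX and E2 was 0 as fitted and 0 with MIX and E2 mice alone, an intensity trend, bright features alone, quantile normalization, subtracted medians or array weights. It was 1 without the code style term, and from 0 to 24 when 1 mouse was left out; the 24 came without MIX replicate 2. The count for the difference between the diet effects with and without the pellet was 0 to 2 when 1 mouse was left out, the 2 again without MIX replicate 2, and 0 otherwise. The features counted at an unadjusted p under 0.05 between MIX and E2 numbered 4643 without the code style term and 4367 with array weights, against 1832. The replicate numbers do not pair the mice: deviations of same-numbered MIX and E2 mice correlated at -0.12, 0.30 and -0.145. With a replicate block 0 features passed. The block turned the sign for Nup210 (0.644), Tyms (0.18), Cdc6 (0.738), Mcm2 (0.656), Pcna (0.336), Hspd1 (0.078), Trpv6 (-0.257) and Agr2 (-0.142), and it took the median of the replication and mitosis list to 0.99. Dhcr7 turned to 0.012 without the code style term, in both fits that lacked it. With 1 mouse left out, the difference ran from -1.115 to 0.019 for Nup210, from -0.445 to 0.134 for Esr1, from -1.011 to 0.021 for Pgr, from -0.301 to 0.057 for Pmvk and from -0.167 to 1.194 for Trpv6. The cause of these turns was not tested. Of 2568 alternative values of the 117 named genes, 2529 were counted as unchanged. For the fits this meant the same direction and the same side of the threshold. None of the 117 passed as fitted, so keeping a side meant not passing. For the lettered mice alone, without a test, it meant a move smaller than the spread between mice. Of 1150 list medians 1110 moved by less than the spread between mice.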
